A study of Mus musculus with 25 samples.

Results

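The genes described here encode the subunits of the mitochondrial respiratory chain and of ATP synthase, read in bulk RNA-seq of macrophages and fibroblasts sorted from mouse lung and skin. Members were chosen by gene symbol: the Nduf, Sdh, Uqcr, Cox and Atp5 subunit families of the nuclear genome, and the protein-coding genes of the mitochondrial genome, whose symbols begin with mt-. The lung table held 93 such genes of 11867, 80 nuclear and 13 mt-, and that of skin held 92 of 12661, 79 nuclear and 13 mt-. Cox8b was listed in the lung table only. Of 110 matching symbols in the annotation, 17 were listed in neither table and were not analysed here; 11 of these are annotated as pseudogenes, and Cox6a2 and Cox7a1, the muscle isoforms of 2 subunits of cytochrome c oxidase, were among the others.

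The study asked what the loss of neutrophils does to macrophages and fibroblasts of both organs. Depleted mice carried Mrp8_CRE and Rosa26_DTR, and control mice Mrp8_WT and Rosa26_DTR, all on the C57BL/6 strain; the age is not given in the labels. The Mrp8 promoter, that of S100a8, drives Cre mainly in neutrophils, and Cre opens the diphtheria toxin receptor gene in the same cells. Every mouse, controls included, received 10 ug/kg diphtheria toxin intraperitoneally for 7 days. Lung interstitial macrophages were gated as CD45+, CD68+, F4/80+, CD11c- and CD11bhi, skin macrophages as CD45+, CD11b+, CD68+ and F4/80+. Fibroblasts were gated as PDGFRA+ without CD45, CD31 and EPCAM, with CD90.1 added in skin. Each lung group held 3 libraries, of 124075 to 385925 estimated reads. In skin there were 3 libraries of fibroblasts in each arm, 4 of depleted and 3 of control macrophages, of 6553115 to 27259903 estimated reads. The labels do not say whether replicates came from separate mice, so each p-value speaks of the spread among these libraries alone, part of which may be technical.

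Of the 3 skin libraries labelled control macrophages, replicates 1 and 5 went against their label. Their fibroblast markers summed to 8.79% and 10.95% of the deposited signal, where the skin fibroblast libraries ranged from 5.70 to 10.98% and the other skin macrophage libraries from 0.025 to 0.190%. All 14 macrophage markers together gave 0.0057% and 0.0062% in these libraries, against 2.30 to 3.20% in the other skin macrophages. Both were kept apart, which left replicate 3 as the only control library of skin macrophages. All other libraries carried the markers of their label. Neutrophil markers, of which 10 were listed in lung, made up 0.758 to 1.61% of the signal of control lung macrophages and 0.150 to 0.186% of that of depleted ones.

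The respiratory chain passes electrons from NADH (complex I) and succinate (complex II) through complex III to oxygen at complex IV, and the proton gradient this builds drives ATP synthase, complex V. All complexes but II are built from subunits of both genomes: the mitochondrial genome supplies core subunits, transcribed inside the organelle as long polycistronic RNAs, while the nuclear genome supplies the remaining subunits from separate promoters. The balance between respiration and glycolysis is a known feature of macrophage activation states, and nuclear respiratory factor 1 (NRF1), the ETS family factor GABPA and YY1 are known regulators of nuclear respiratory chain promoters.

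The promoters of 5 members are shown. Cox6b1, Sdhd, Ndufb7 and Atp5g2, from 4 complexes, were called higher in macrophages of both organs and hold a motif in this window; they are examples, chosen with these matches known, and not the largest differences. Cox8b, which had no read in lung macrophages, is set beside them. Each line gives the 120 bases before the RefSeq start (GRCm38.p6), 5′ to 3′ on the gene's strand. Capitals mark an ETS core (CCGGAAG, or CTTCCGG on the other strand) or an NRF1 core (GCGCATGC, or GCATGCGC). In these 120 bases of Cox8b none of the letters searched was found. The positions are chr7:30626115-30626234 (minus strand) for Cox6b1, chr9:50603850-50603969 (minus) for Sdhd, chr8:83566638-83566757 (plus) for Ndufb7, chr15:102671048-102671167 (minus) for Atp5g2 and chr7:140900447-140900566 (minus) for Cox8b.
Cox6b1: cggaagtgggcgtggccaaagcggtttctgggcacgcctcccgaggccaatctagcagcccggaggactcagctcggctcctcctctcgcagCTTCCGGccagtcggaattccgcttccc
Sdhd: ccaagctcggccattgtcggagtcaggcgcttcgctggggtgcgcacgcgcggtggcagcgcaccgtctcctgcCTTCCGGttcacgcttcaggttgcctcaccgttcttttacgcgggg
Ndufb7: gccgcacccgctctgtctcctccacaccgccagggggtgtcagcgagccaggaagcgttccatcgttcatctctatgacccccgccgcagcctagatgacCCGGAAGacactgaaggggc
Atp5g2: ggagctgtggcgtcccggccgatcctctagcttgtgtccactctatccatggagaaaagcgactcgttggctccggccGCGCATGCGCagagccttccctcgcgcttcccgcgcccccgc
Cox8b: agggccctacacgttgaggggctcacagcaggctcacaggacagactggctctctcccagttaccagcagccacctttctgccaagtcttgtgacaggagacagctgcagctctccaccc

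RefSeq windows of 300 bases, 250 before and 50 after the start, were matched for 64 of the 80 nuclear members, which gave 69 windows. On either strand, the ETS core was found in 16 member windows (23.2%) and in 8.86% of the 32851 windows of all genes. The NRF1 core was found in 10 (14.5%, against 2.71% of all windows) and the YY1 core AAGATGGC, or GCCATCTT, in 9 (13%, against 2.75%). At least 1 of the 3 cores was present in 29 member windows, 42.0%, against 13.3% of all windows. The TATA box letters TATAAA, or TTTATA, were in 7 member windows, 10.1%, against 13.6% of all windows; the Cox8b window is among these 7. Matches of different motifs did not overlap in member windows. These matches describe letters, not sites in use.

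The median mt- share of the signal was higher in fibroblasts than in macrophages of both organs, with ranges that overlapped in each. The deposited values are a linear signal per gene and library, proportional to estimated reads. In lung, the 13 mt- genes summed to 5.55 to 7.90% of a fibroblast library (median 6.49%) and to 3.01 to 6.39% of a macrophage library (median 4.32%). The 80 nuclear members summed to 1.36 to 1.63% in lung fibroblasts and 1.35 to 1.78% in lung macrophages, ranges that lie over each other. In skin, the mt- share was 3.25 to 7.42% in fibroblasts and 2.35 to 5.14% in the 5 macrophage libraries, and the nuclear share 1.03 to 1.48% and 1.46 to 1.94%.

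The ratio of summed mt- to summed nuclear signal, which does not depend on how a library was scaled, was 3.81 to 4.88 in lung fibroblasts and 2.01 to 4.36 in lung macrophages. Only control macrophages 1, at 4.36, reached the fibroblast range in lung; the other 5 macrophage libraries lay at 3.17 or below. In skin the ratio was 2.86 to 5.62 in fibroblasts (median 4.02) and 1.61 to 2.68 in macrophages (median 1.71), without overlap. The 2.68 was that of the only control macrophage library, close to the 2.86 of skin control fibroblasts 4. Depleted macrophages lay at 1.61 to 2.05. The pair of libraries kept apart had ratios of 3.60 and 4.05, inside the range of skin fibroblasts. The mt- share differed within 1 group as well: skin control fibroblasts 3, 4 and 5 held 7.42%, 3.25% and 4.64%. Ribosomal RNA genes were highest in skin control fibroblasts 3 (1.49% of signal), skin control macrophages 3 (1.34%) and the library of control macrophages 1 kept apart (1.33%); their part in these shares was not tested.

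**Figure D1:**
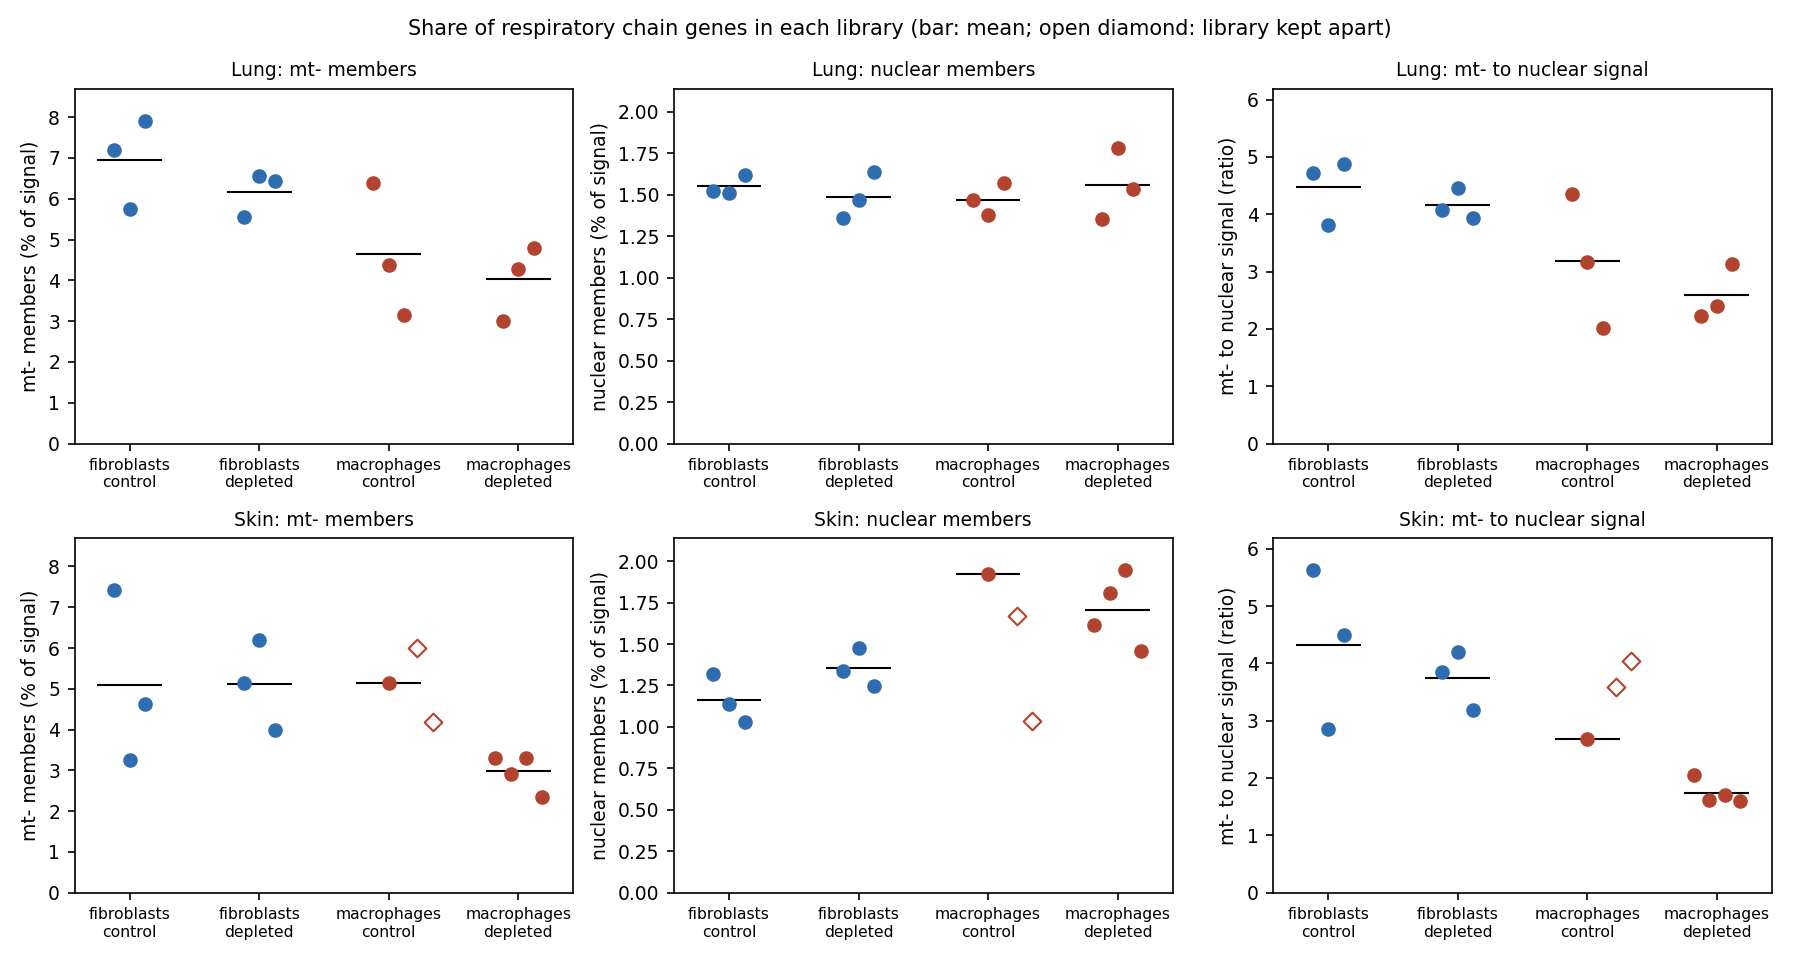
Each point is 1 library; the vertical axes give the mt- members and the nuclear members as a percentage of the library's signal, and the ratio of summed mt- to summed nuclear signal, by cell type and arm, with lung above and skin below. Bars are group means and open diamonds the libraries kept apart; in skin, the 5 macrophage libraries (1.61 to 2.68) lie below every fibroblast library (2.86 to 5.62) in the ratio.

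Within each cell type the order of the mt- genes was compared per kilobase of transcript, the only scale on which levels of different genes can be set side by side. mt-Atp6, a core subunit of ATP synthase that shares a transcript with mt-Atp8, was highest per kilobase in every cell type, with a mean of 20541 ± 2864 (SD, n = 6) in lung fibroblasts. mt-Cytb, cytochrome b and the only mt- subunit of complex III, held rank 3 per kilobase in fibroblasts of both organs, rank 5 in lung macrophages and rank 6 in skin macrophages. Its neighbours in that order in lung macrophages, mt-Co2 and mt-Co1, lay within its spread: mt-Cytb averaged 6691 ± 1348 per kilobase, mt-Co2 6922 ± 1762 and mt-Co1 6449 ± 1868 (SD, n = 6). Nuclear members were scaled by the longest annotated transcript of each gene. On that length Cox4i1, a regulatory subunit of complex IV, was highest in every cell type, at means of 603 and 969 in lung fibroblasts and macrophages and of 631 and 1501 in skin fibroblasts and macrophages. Cox6a1 held the next rank in fibroblasts of both organs, and Cox6b1 in macrophages of both. The order of nuclear members depends on the length chosen. Cox4i1 has a longest transcript of 765 bases and a median of 608, and Cox6b1 of 618 and 361. These ranks therefore hold for the longest transcript only.

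Macrophages of lung were compared with fibroblasts of lung over both arms, 6 libraries against 6. On the deposited scale the calls among nuclear members lay mainly on the side of macrophages. The few calls among mt- members lay on the side of fibroblasts, at a share near that of all genes. At a Benjamini-Hochberg adjusted p below 0.05 in limma, 30 of 80 nuclear members were higher (37.5%, against 18.5% of all genes). Of the nuclear members 6 were lower (7.5%, against 18.0% of all genes), and of 13 mt- members 3 were lower (23.1%, against the same 18.0%). The median log2 difference was 0.36 over the nuclear members, -0.18 over the mt- members and -0.09 over all genes. The groups did not overlap for 19 of 80 nuclear members and 1 of 13 mt- members, against 19.5% of all genes, a share near that of the members. In lung the filter on low values removed no gene, so it could remove no member; in skin it removed genes, and all members listed passed.

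In skin, 5 macrophage libraries, 4 depleted and 1 control, were compared with 6 of fibroblasts. The arm was a covariate, so these differences are adjusted for it and lean on the lone control library of macrophages. Of 79 nuclear members 43 were higher in macrophages (54.4%, against 14.3% of all genes tested) and 1 was lower (1.27%, against 16.4%). Of 13 mt- members 2 were lower (15.4%, near the 16.4% of all genes tested). The median log2 difference was 0.79 over nuclear members, with 75 of 79 above 0, and -0.24 over mt- members, against -0.11 over all genes. The groups did not overlap for 31 of 79 nuclear members and for no mt- member, against 22.5% of all genes tested. Without the lone control library of macrophages, 28 members were called in place of 46.

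These counts depend on how libraries are scaled, since the deposited total signal itself was higher in macrophages (in lung 1079785 to 1314479 against 865076 to 951468). With libraries scaled to totals that leave out the mt- genes, the lung count turned to 6 members higher and 27 lower, with medians of -0.08 (nuclear), -0.62 (mt-) and -0.49 (all genes). With quantile normalisation it was 14 higher and 19 lower, against 30 and 9 as first given. All these higher calls were nuclear. With totals that leave out the mt- genes, 6 of 80 nuclear members stood against 12.8% of all genes, and with quantile normalisation 14 of 80 against 17.5%. Neither lung share lay above that of all genes, unlike the share first given. Lower nuclear members were 15 and 8 of 80, against 30.0% and 18.4% of all genes. In skin the split moved from 43 higher and 3 lower to 23 and 6 with totals that leave out the mt- genes, and to 34 and 10 with quantile normalisation. Of all genes tested in skin, 10.3% were higher and 21.3% lower with those totals, and 15.7% and 15.8% with quantile normalisation. Directions of single genes are therefore given on the deposited scale. Over 14 settings the nuclear median lay above the mt- median by 0.47 to 0.79 in lung and by 0.75 to 1.39 in skin (log2). Most of these settings could hardly change this gap. A rescaling of whole libraries moves both medians nearly alike, and the variance trend and the threshold move neither. The gap was 0.54 in lung and 1.03 in skin, both as first given and with totals that leave out the mt- genes. With quantile normalisation, which is no such rescaling, it was 0.79 and 1.39. Over the same settings the nuclear median lay above that of all genes by 0.18 to 0.55 in lung and 0.57 to 0.93 in skin, with the same limit.

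Other RNA moved with this comparison. The nuclear-retained RNAs Malat1, Neat1, Meg3 and Kcnq1ot1 summed to 5.32 to 6.90% of the signal of lung fibroblasts and 0.873 to 2.63% of that of lung macrophages, and in skin to 0.496 to 1.3% and 0.238 to 0.556%. Lung epithelial markers, 11 of which were listed, summed to 0.0578 to 0.566% in lung fibroblasts and 0.204 to 2.15% in lung macrophages. Their part in the differences of the members was not tested. In bulk samples, fewer cells of a type and less RNA per cell cannot be told apart.

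**Figure D2:**
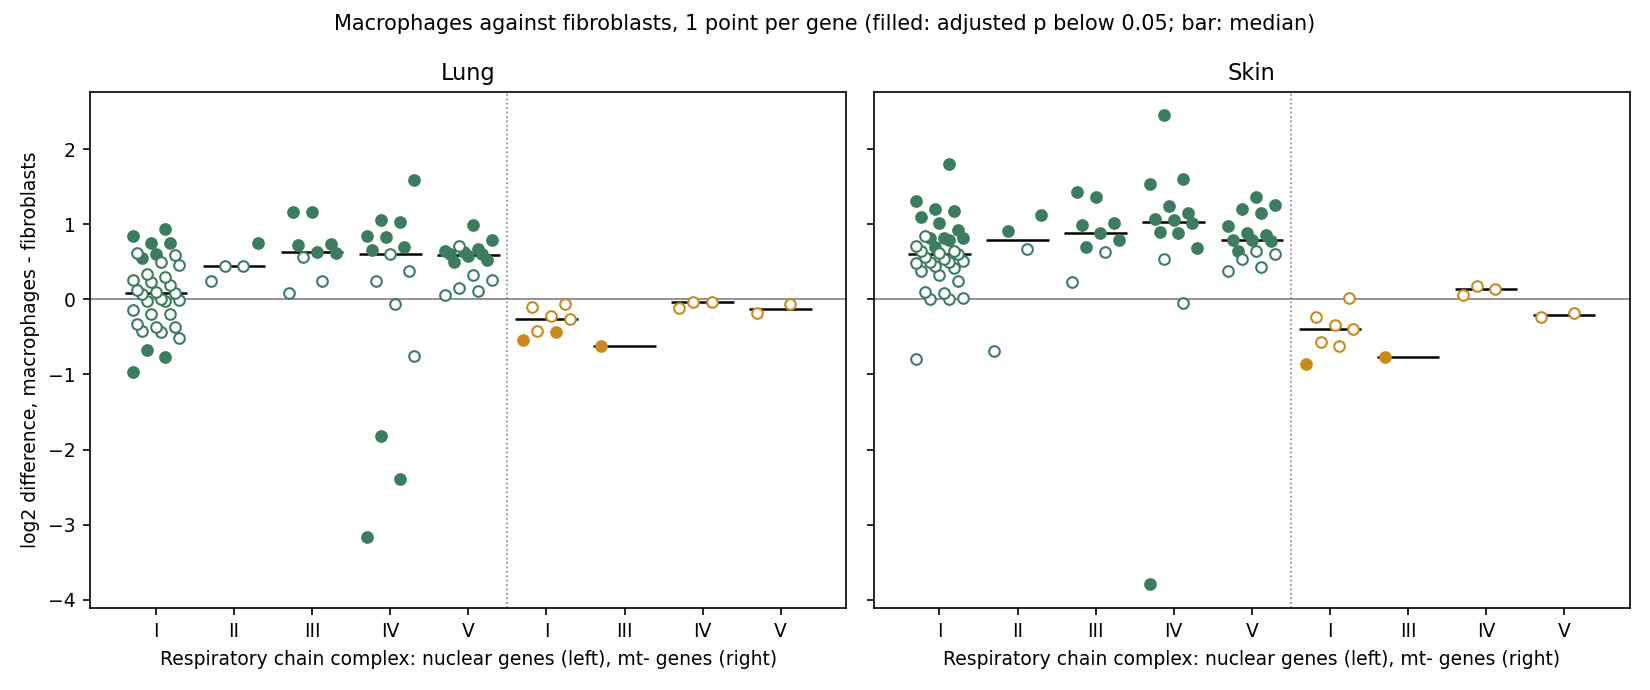
Each point is 1 gene; the vertical axis is the log2 difference between macrophages and fibroblasts, the horizontal axis the complex, with nuclear genes left and mt- genes right of the dotted line, and filled points passed an adjusted p below 0.05. Medians of nuclear genes range from 0.09 (complex I) to 0.62 (complex III) in lung and from 0.61 (complex I) to 1.04 (complex IV) in skin.

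Complex I, the NADH dehydrogenase, has 35 nuclear members here. In lung 6 were higher in macrophages (17.1%, against 18.5% of all genes) and 3 lower (8.57%, against 18.0%), shares near or below those of all genes, with a median log2 difference of 0.09. In skin 12 were higher (34.3%, against 14.3% of all genes tested), none was lower and the median was 0.61. Ndufb7, an accessory subunit of the membrane arm (chr8:83566671-83571626), had signals of 95.7, 133.5 and 160.0 in lung fibroblasts (lowest, median, highest) and of 192.1, 263.0 and 279.9 in lung macrophages. Every macrophage library lay above every fibroblast library, with a log2 difference of 0.94 ± 0.21 (SE, limma adjusted p = 4.549e-04); in skin the difference was 1.18 ± 0.22 (adjusted p = 0.001012). Ndufb8, of the same arm, was higher by 0.84 ± 0.20 in lung and 1.2 ± 0.22 in skin; it overlaps the gene model Gm20538 on the same strand, so its reads may be shared with it.

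Ndufc2, another membrane arm subunit (chr7:97400003-97407802), was the largest complex I difference in skin. Its signals in skin fibroblasts were 50.2 (lowest), 80.3 (median) and 99.1 (highest); the depleted macrophages had 338.4, 289.9, 298.7 and 173.4 and the control macrophage library 276.8. All 5 macrophage libraries were above the fibroblasts, by a log2 difference of 1.8 ± 0.25 (limma adjusted p = 6.844e-05). In lung the difference was 0.50 ± 0.22 and did not pass (limma adjusted p = 0.0772). Ndufc2 overlaps Gm16053 on the same strand.

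The complex I members lower in lung macrophages included Ndufa5 and Ndufb9. Ndufa5, an accessory subunit of the arm that reaches into the matrix (chr6:24518666-24528013), had signals of 95.3, 146.6 and 162.2 in lung fibroblasts (lowest, median, highest) and 56.4, 75.0 and 83.8 in lung macrophages. No macrophage library reached a fibroblast library, and the log2 difference was -0.97 ± 0.24 (limma adjusted p = 0.001924). In skin it was 0.01 ± 0.30. Ndufb9, of the membrane arm, had a lung median of 191.5 in fibroblasts and 122.1 in macrophages, again without overlap (-0.68 ± 0.21, limma adjusted p = 0.0113), and overlaps Gm49356 on the same strand.

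Set against Ndufb7 within each library, the ratio of Ndufa5 to Ndufb7 signal was 0.805 to 1.7 in lung fibroblasts and 0.209 to 0.412 in lung macrophages, and in skin 0.704 to 1.54 and 0.318 to 0.548. These complex I subunits stood in different proportions in the RNA of the 2 cell types in both organs, without overlap between libraries; the pair, like the other pairs of genes set against each other below, was chosen after its values were seen.

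Complex II, succinate dehydrogenase, is built from 4 nuclear subunits only. Sdhd, a membrane anchor (chr9:50596357-50603812), was higher in macrophages of both organs, by 0.75 ± 0.23 in lung (limma adjusted p = 0.0111) and 1.12 ± 0.21 in skin (adjusted p = 0.00105). In skin its signals were 92.3, 145.3 and 207.7 in fibroblasts (lowest, median, highest), 339.7, 400.7, 408.1 and 305.7 in depleted macrophages and 295.3 in the control macrophages, all above the fibroblasts. Sdhb, the iron-sulfur subunit, differed by 0.44 ± 0.21 in lung (adjusted p = 0.0995) and 0.92 ± 0.18 in skin (adjusted p = 0.00114, limma). Sdha, the catalytic flavoprotein, did not follow: its skin medians were 191.2 in fibroblasts and 125.8 in macrophages, with overlapping ranges and a difference of -0.69 ± 0.30 (limma adjusted p = 0.0987).

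Complex III, the cytochrome bc1 complex, had all 9 nuclear members above 0 in both organs. In lung 6 were called higher (66.7%, against 18.5% of all genes, median 0.62), and in skin 7 (77.8%, against 14.3% of all genes tested, median 0.88). Cox7a2l, which joins complexes III and IV into supercomplexes, is counted here. Uqcrfs1, the Rieske iron-sulfur protein (chr13:30540308-30545362), had lung signals of 37.4, 84.6 and 90.9 in fibroblasts (lowest, median, highest) and 115.4, 175.3 and 214.9 in macrophages. Its log2 difference was 1.17 ± 0.26 in lung (limma adjusted p = 4.736e-04) and 1.43 ± 0.22 in skin (adjusted p = 1.866e-04), without overlap in either organ. Uqcrq, a small subunit, was higher by 1.16 ± 0.22 and 1.36 ± 0.29. The core protein Uqcrc1 differed by 0.73 ± 0.29 in lung (limma adjusted p = 0.0448), a call kept in 10 of 24 settings, and 0.23 ± 0.19 in skin (adjusted p = 0.385); 8 of the 14 settings that lost it left out a single library.

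Complex IV, cytochrome c oxidase, held the largest differences in both directions. Of 15 nuclear members in lung 7 were higher in macrophages (46.7%, against 18.5% of all genes) and 3 lower (20%, near the 18.0% of all genes). Of 14 in skin 11 were higher (78.6%, against 14.3% of all genes tested) and 1 lower (7.14%, against 16.4%). Cox5a, a nuclear subunit on the matrix side of the core (chr9:57521274-57532426), had lung signals of 49.1, 104.7 and 143.3 in fibroblasts (lowest, median, highest) and of 252.4, 287.2 and 328.3 in macrophages. The ranges were far apart, and the log2 difference was 1.59 ± 0.24 (limma adjusted p = 1.407e-06). In skin, Cox5a had 78.2, 96.4 and 196.2 in fibroblasts, 388.9, 318.5, 426.6 and 268.3 in depleted macrophages and 346.5 in the control macrophages, a difference of 1.60 ± 0.29 (limma adjusted p = 6.412e-04).

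Cox6b1, the subunit that faces the intermembrane space where oxidase monomers meet (chr7:30616861-30626151), carries the ETS core marked in its sequence above. Its lung signals were 215.7, 259.9 and 333.2 in fibroblasts (lowest, median, highest) and 474.9, 528.8 and 667.1 in macrophages, a log2 difference of 1.03 ± 0.18 (limma adjusted p = 1.933e-05). In skin they were 115.5, 161.7 and 186.7 in fibroblasts, 384.9, 478.3, 549.8 and 351.3 in depleted macrophages and 543.9 in the control macrophages (1.54 ± 0.22, limma adjusted p = 8.311e-05). No macrophage library overlapped the fibroblasts in either organ. Cox6b1, Cox5a and Ndufb7 were the members called higher in lung under every one of 24 settings.

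Cox6b2, a paralogue of Cox6b1 known from testis (chr7:4751792-4753094), went the other way in lung. Its signals were 51.1, 88.8 and 144.4 in fibroblasts (lowest, median, highest) and 4.5, 15.6 and 44.2 in macrophages, without overlap; these rest on 130 and 20 estimated reads over 6 libraries each. The log2 difference was -2.39 ± 0.40 (limma adjusted p = 1.191e-05), and the ratio of Cox6b2 to Cox6b1 signal was 0.211 to 0.591 in lung fibroblasts and 0.0095 to 0.0785 in lung macrophages. In skin Cox6b2 was low throughout, at most 6.98 in fibroblasts, 9.30, 21.2, 37.3 and 6.94 in depleted macrophages and 21.5 in the control macrophages, and its difference of 2.45 ± 0.75 (limma adjusted p = 0.0230) was lost in 9 of 23 settings, 5 of which left out a single library. The difference between organs was not tested, since their tables were normalised separately.

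Other isoform families of the oxidase are given with the common form first, and Cox8b follows below. Cox4i1 was higher in macrophages by 0.66 ± 0.17 in lung and 1.24 ± 0.21 in skin, while its paralogue Cox4i2 had 7 estimated reads in lung fibroblasts and 2 in lung macrophages, and at most 28.7 signal units in a skin library. Cox8a, the common form of subunit 8, was higher by 0.70 ± 0.18 in lung and 1.07 ± 0.26 in skin, without overlap in either organ. Cox7a2 differed by 0.60 ± 0.25 in lung (limma adjusted p = 0.0579) and was higher by 0.88 ± 0.26 in skin (adjusted p = 0.0194). Cox6a1 differed by 0.37 ± 0.18 in lung (limma adjusted p = 0.0997) and was higher by 0.68 ± 0.21 in skin (adjusted p = 0.0215).

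Cox8b, the isoform of Cox8a known from heart, skeletal muscle and brown fat (chr7:140898945-140900446), was read in all 6 lung fibroblast libraries and in no lung macrophage library. Control fibroblasts had 6, 3 and 13 estimated reads and depleted fibroblasts 5, 7 and 7, which made 41 reads; lung macrophages had 0 in all 6 libraries, which together held more reads. Against a floor of 3 reads over the macrophage group, Cox8b was at least 16.5-fold higher in fibroblasts, for counting error only. Its macrophage values are what 0 reads receive in each library, so they hold no measured spread and the fitted difference is not given. Striated muscle markers, 3 of which were listed in lung, summed to 0.0019 to 0.0056% of signal in fibroblasts and 0.0023 to 0.0050% in macrophages; Ryr1 was at 0 reads in all fibroblasts and Pygm at 0 in all macrophages. Myl7, the only cardiac marker listed, had at most 2 reads in a library of either cell type. The adipocyte markers, of which 4 were listed, summed to 0.0024 to 0.0051% in fibroblasts and 0.0038 to 0.0107% in macrophages.

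Ndufa4l2, a paralogue of the complex IV subunit Ndufa4 that is known to be induced by hypoxia (chr10:127514967-127517154), was the largest difference in skin. Skin control fibroblasts had signals of 329.2, 333.5 and 299.8 and depleted fibroblasts 323.2, 235.9 and 157.3. Depleted skin macrophages had 0.566, 25.7, 53.9 and 6.87, and the control macrophages 51.5. All fibroblasts were above all macrophages, with a log2 difference of -3.79 ± 0.74 (limma adjusted p = 0.00134). The libraries kept apart had 344.8 and 381.0, above every fibroblast library. Fibroblast markers ranged from 0.025 to 0.190% of signal in these macrophages, and their part in the macrophage values of Ndufa4l2 was not tested.

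Ndufa4 itself was higher in skin macrophages, with 91.4, 124.9 and 157.6 in fibroblasts (lowest, median, highest), 174.5, 203.1, 257.6 and 160.9 in depleted macrophages and 316.0 in the control macrophages (0.89 ± 0.24, limma adjusted p = 0.0114), a call lost without that control library. The ratio of Ndufa4l2 to Ndufa4 was 1.23 to 3.45 in skin fibroblasts and 0.0032 to 0.209 in skin macrophages. In lung Ndufa4l2 was near the limit of the depth, with 17 reads in fibroblasts and 1 in macrophages, a ratio of 20.6 after division by the reads sequenced (95% exact interval 3.22 to 859, for counting error only). Markers of pericytes and smooth muscle, 8 of which were listed in skin and 5 in lung, summed to 0.0132 to 0.0341% of signal in skin fibroblasts and 0.0008 to 0.0038% in skin macrophages, and in lung to 0.010 to 0.0204% and 0.0021 to 0.0054%, with Kcnj8 at 0 reads in every lung macrophage library; their part was not tested. Ndufa4l2 overlaps Shmt2 on the opposite strand, and whether counting used strand is not given in the sources used here.

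**Figure D3:**
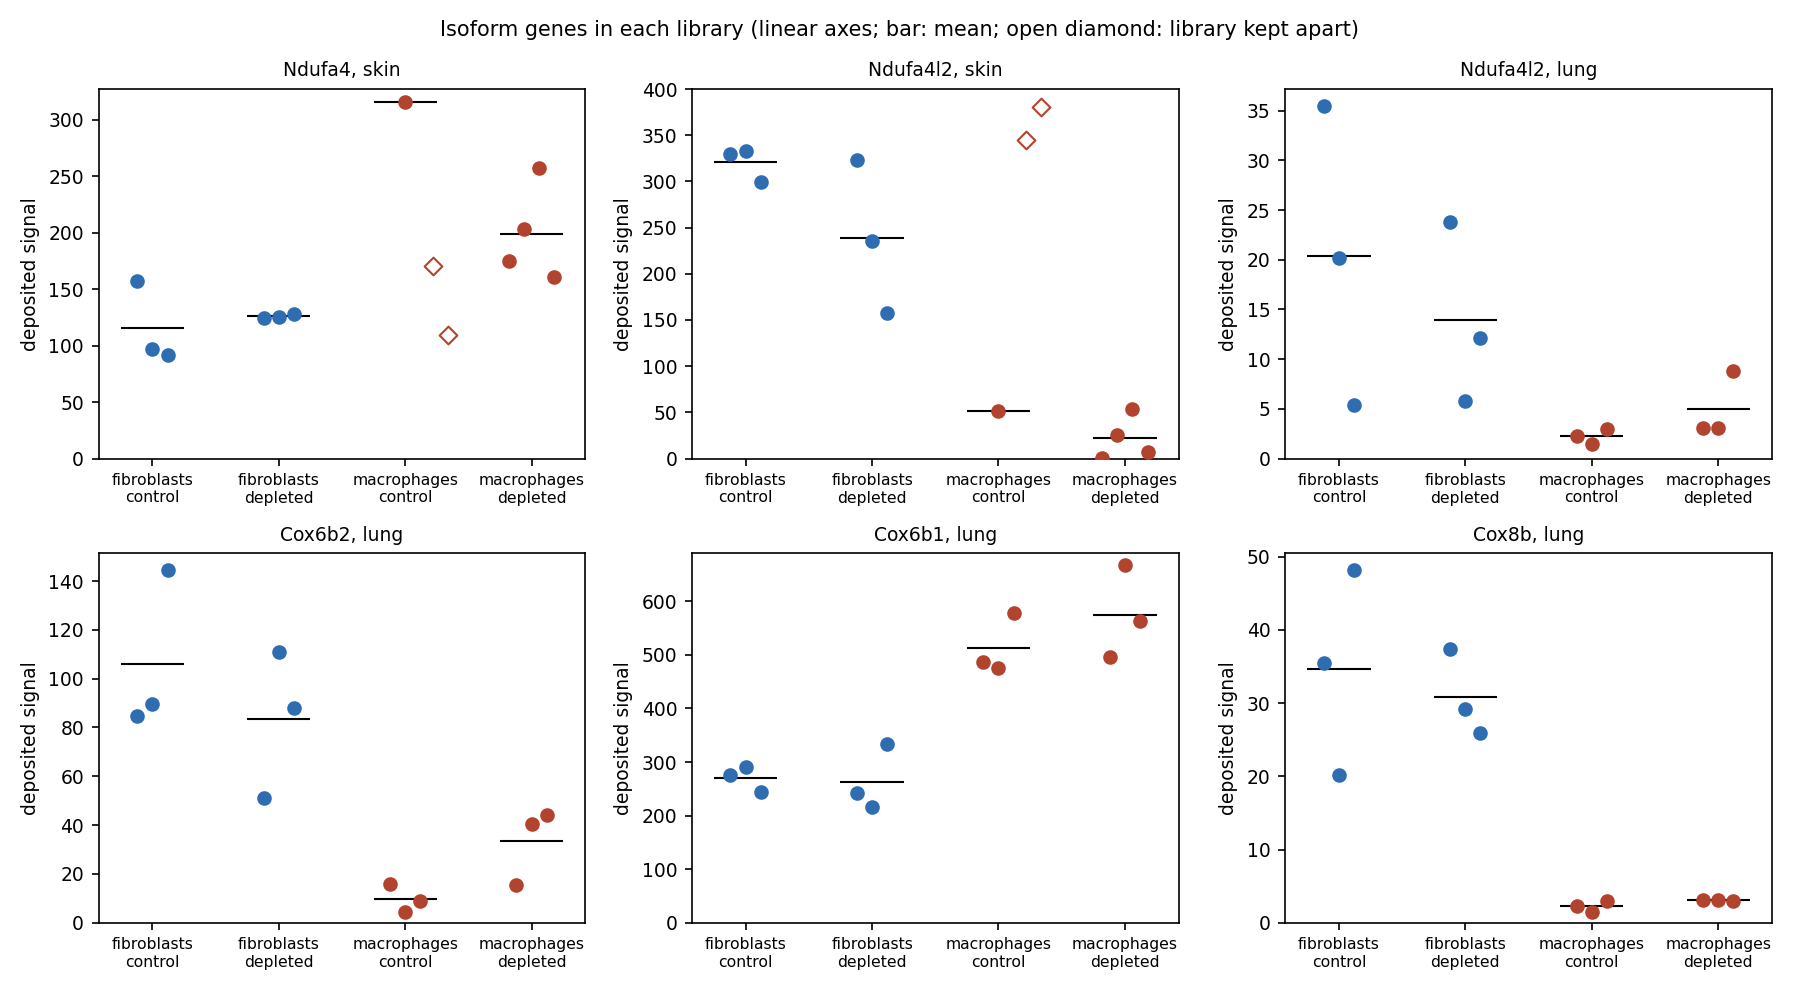
Each point is 1 library; the vertical axis is the deposited signal on a linear scale, by cell type and arm, bars are means and open diamonds the libraries kept apart. Ndufa4l2 in skin, and Cox6b2 and Cox8b in lung, lie higher in every fibroblast library than in any macrophage library, while Cox6b1 in lung and Ndufa4 in skin lie higher in macrophages.

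Complex V, ATP synthase, had all 16 nuclear members above 0 in both organs, and every call was higher in macrophages. In lung 10 passed (62.5%, against 18.5% of all genes, median 0.59), and in skin 11 (68.8%, against 14.3% of all genes tested, median 0.79). Each of the 10 lung calls was lost with totals that leave out the mt- genes, and with control mice only. Atp5c1, the central stalk subunit, was higher by 0.79 ± 0.20 in lung and 0.80 ± 0.22 in skin. Atp5g2, 1 of 3 genes for the same c-ring protein (chr15:102662864-102672352), differed by 0.99 ± 0.28 and 1.26 ± 0.26. Its paralogues did so to another extent: Atp5g1 by 0.58 ± 0.19 and 0.89 ± 0.23, and Atp5g3 by 0.06 ± 0.23 in lung (limma adjusted p = 0.862) and 0.64 ± 0.27 in skin (adjusted p = 0.0865). Atp5mpl, a small proteolipid of the complex, differed by 1.36 ± 0.26 in skin, where the groups did not overlap. Atp5s, a coupling factor and the only member outside the complexes, was low and differed by -0.22 ± 0.51 in lung and 1.07 ± 1.01 in skin, neither past the test.

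The 13 mt- genes did not differ alike either. mt-Cytb (chrM:14145-15288) had lung signals of 10382, 10888 and 13615 in fibroblasts (lowest, median, highest) and 5265, 7949 and 9218 in macrophages, without overlap, and a log2 difference of -0.62 ± 0.13 (limma adjusted p = 3.011e-04). In skin it had 5345, 7858 and 10749 in fibroblasts, and 4231, 3710, 4186 and 3388 in depleted macrophages. The control macrophages, at 6147, lay inside the fibroblast range, and the log2 difference was -0.77 ± 0.22 (limma adjusted p = 0.0167). This call was kept in 18 of 23 settings. It was lost with median-of-ratios scaling, with no variance trend, with all libraries as labelled, and without depleted fibroblasts 2 or without depleted fibroblasts 4. mt-Cytb was the only mt- gene called in both organs. mt-Nd2 and mt-Nd4 were also lower in lung macrophages (-0.55 ± 0.20 and -0.44 ± 0.17), calls lost in 9 and 13 of 24 settings. mt-Nd4l was lower in skin macrophages (-0.86 ± 0.24, limma adjusted p = 0.0122), a call kept in 20 of 23 settings. The call of mt-Nd4l was lost with median-of-ratios scaling, with no variance trend and with all libraries as labelled.

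The remaining mt- genes did not pass in either organ on the deposited scale. The number of mt- genes called lower depended on the settings and went both ways. It was 3 in lung and 2 in skin as first given, 2 and 0 with median-of-ratios scaling, and 0 in both with no variance trend. It was 12 of 13 in lung and 4 in skin with totals that leave out the mt- genes, and 11 and 8 with quantile normalisation. Of all genes, 30.0% in lung and 21.3% in skin were lower with those totals, and 18.4% and 15.8% with quantile normalisation. The complex I genes mt-Nd1, mt-Nd3, mt-Nd5 and mt-Nd6 differed by -0.26, -0.22, -0.06 and -0.10 in lung and by -0.39, -0.35, -0.24 and 0.01 in skin. mt-Nd6 is the only member encoded on the other strand of the mitochondrial genome. The ATP synthase genes mt-Atp6 and mt-Atp8 differed by -0.18 and -0.06 in lung and by -0.18 and -0.23 in skin, and the oxidase genes mt-Co2 and mt-Co3 by -0.12 and -0.03 in lung and by 0.06 and 0.13 in skin.

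The catalytic oxidase subunit mt-Co1, whose gene lies on the same strand as mt-Cytb, had lung medians of 9879 in fibroblasts and 9903 in macrophages and differed by -0.04 ± 0.15 (limma adjusted p = 0.869); in skin the difference was 0.17 ± 0.29 (adjusted p = 0.699). The ratio of mt-Cytb to mt-Co1 signal within a library was 0.800 to 1.33 in lung fibroblasts and 0.609 to 0.983 in lung macrophages. In skin it was 0.768 to 1.13 in fibroblasts and 0.458 to 0.638 in macrophages, without overlap. The ratio of mt-Nd4l to mt-Co1 in skin was 0.0320 to 0.0470 in fibroblasts and 0.0176 to 0.0241 in macrophages, again without overlap; in lung it was 0.0134 to 0.027 and 0.0113 to 0.021, with overlap. The ratio of mt-Nd6 to mt-Co1 overlapped in both organs, at 0.021 to 0.0503 in fibroblasts and 0.0241 to 0.0407 in macrophages of lung, and at 0.0266 to 0.0452 and 0.0234 to 0.0368 in skin. A ratio within a library does not depend on its scale.

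Across organs, 25 nuclear members were called higher in macrophages in both, which is 83.3% of the 30 called higher in lung and 58.1% of the 43 in skin. Of the 9935 genes tested in both organs 1146 were called higher in both (11.5%), which is 60.3% of those called higher in lung and 71.2% of those in skin, so the overlap of the members lies above that of all genes as a share of the lung calls and below it as a share of the skin calls. The 25 include the complex IV subunits Cox4i1, Cox5a, Cox5b, Cox6b1, Cox7b, Cox7c and Cox8a, the ATP synthase subunits Atp5c1, Atp5e, Atp5f1, Atp5g1, Atp5g2, Atp5h, Atp5l and Atp5mpl, and Uqcrb, Uqcrfs1, Uqcrq and Cox7a2l of complex III. The others were Sdhd, Ndufa3, Ndufb7, Ndufb8, Ndufs8 and Ndufv2. Ndufa4l2 and mt-Cytb were called lower in both organs, and Cox6b2 in opposite directions. Of the 21 RefSeq windows of these 25 genes 8 held the ETS core, 38.1%, and of the other 48 member windows 8, 16.7%. The NRF1 and YY1 cores went the other way. The NRF1 core was in 2 of the 21 (9.52%) and 8 of the 48 (16.7%), and the YY1 core in 2 (9.52%) and 7 (14.6%). The TATA box letters were in 3 (14.3%) and 4 (8.33%). These splits follow the calls and were given no test.

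**Figure D4:**
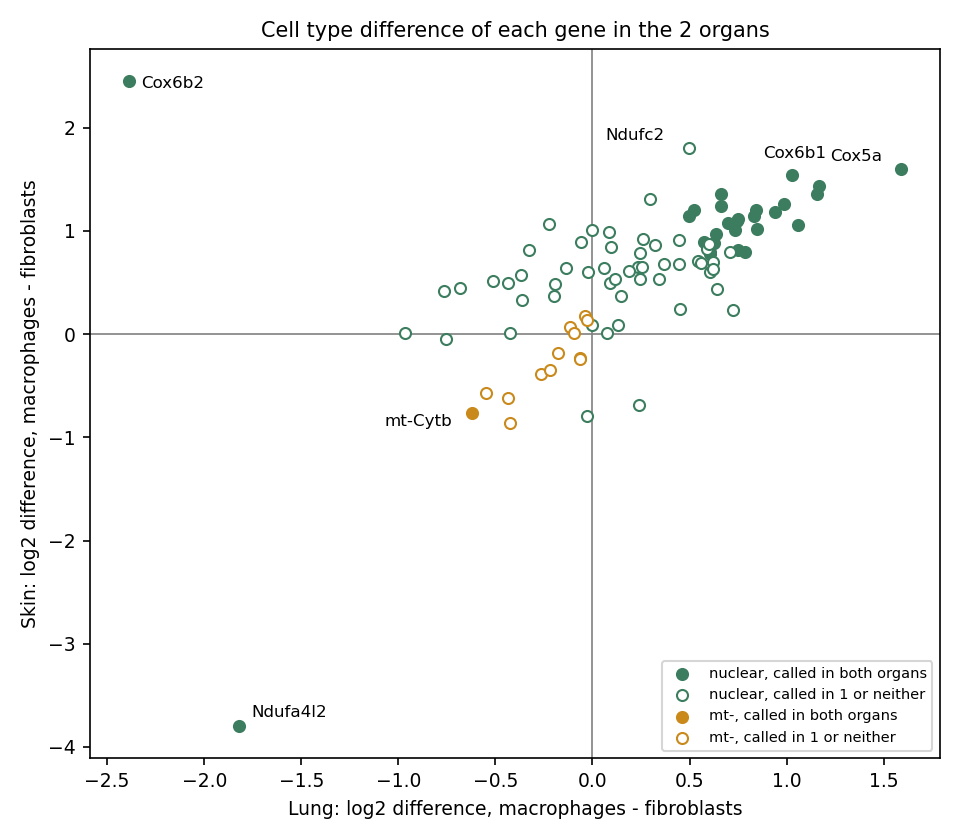
Each point is 1 of the 92 genes in both tables; the axes give the log2 difference between macrophages and fibroblasts in lung (horizontal) and skin (vertical), and filled points were called in both organs. The 25 nuclear genes called higher in both lie at the upper right, mt-Cytb and Ndufa4l2 at the lower left and Cox6b2 at the upper left.

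Genes that serve the chain without being subunits were counted in lists by function, to be read against 18.5% of all genes higher and 18.0% lower in lung, and 14.3% and 16.4% in skin. Of 15 assembly factors of complex I in lung 1 was lower and none higher, with a median of -0.14, and of 14 in skin none passed. Of the assembly factors of complexes II to V, 4 of 29 were higher in lung (13.8%) and 5 of 33 in skin (15.2%), shares near or below those of all genes; they include Cox14, an early factor of oxidase assembly (1.0 ± 0.23 in lung, 0.90 ± 0.24 in skin). Mitochondrial transcription and RNA handling genes gave 1 of 19 called in lung, the terminator family gene Mterf3 (-1.09 ± 0.27), and 1 of 25 in skin, both lower. Mitochondrial ribosome genes gave 7 higher (9.09%) and 4 lower (5.19%) of 77 in lung, below the shares of all genes, and 14 higher of 78 in skin (17.9%), near theirs, with medians of 0.14 and 0.48; Mrpl33 was higher by 1.23 ± 0.21 and 1.21 ± 0.25. Tricarboxylic acid cycle and pyruvate entry genes gave 2 higher and 1 lower of 20 in lung, and 3 and 1 of 21 in skin.

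Carriers of the inner and outer membrane differed in both directions. Ucp2, an uncoupling protein of the inner membrane, was higher in macrophages by 5.91 ± 0.34 in lung and 6.59 ± 0.44 in skin (limma adjusted p = 4.147e-16 and 7.234e-08). Slc25a5, an ADP/ATP carrier, was higher by 2.02 ± 0.19 and 1.55 ± 0.19, while its paralogue Slc25a4 was lower in lung macrophages (-1.45 ± 0.24). In all 3 of 8 carriers were higher and 1 lower in lung, and 6 of 8 higher and 1 lower in skin. Of 10 antioxidant genes 4 were higher in each organ, with Gpx1, a glutathione peroxidase, at 2.75 ± 0.15 and 1.99 ± 0.23. Cycs, cytochrome c, was higher by 1.22 ± 0.32 in lung (limma adjusted p = 0.00276) and differed by 0.73 ± 0.28 in skin (adjusted p = 0.0687).

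Neutrophil depletion gave no member called in either cell type of either organ. In lung macrophages, 3 against 3, none of 93 members passed (0.497% of all genes did), and 10 nuclear members had an unadjusted p below 0.05 in limma (12.5%, against 7.94% of all genes), all higher in depleted mice. The nuclear median was 0.18, with 58 of 80 above 0, and the mt- median -0.06. Over all genes the median was 0.04, with 6202 of 11867 above 0. Ndufb10, a membrane arm subunit of complex I, had the lowest p: its signals were 260.7, 238.9 and 173.7 in depleted and 92.8, 156.3 and 145.5 in control macrophages. The groups did not overlap, but the difference of 0.78 ± 0.30 did not pass (limma adjusted p = 0.441). Groups did not overlap for 13 of 80 nuclear members, against 12.2% of all genes. Macrophage markers, all 14 listed, summed to 3.21 to 3.63% of signal in depleted and 1.78 to 2.86% in control macrophages, and the 2 mast cell markers listed to 0.0021 to 0.0042% and 0.0113 to 0.026%, both without overlap. Lung epithelial markers were 0.920 to 2.15% of signal in depleted and 0.204 to 0.871% in control macrophages, beside the neutrophil markers given above; their part in these values was not tested.

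In lung fibroblasts none of the members passed in limma (0.00843% of all genes did), and 3 nuclear members had an unadjusted p below 0.05 (3.75%, against 5.06% of all genes). The medians were -0.08 (nuclear) and -0.13 (mt-). Ndufa9, an accessory subunit of complex I, had 157.9, 143.3 and 179.2 in depleted and 107.3, 62.9 and 93.0 in control fibroblasts, without overlap, and a difference of 0.89 ± 0.32 (limma adjusted p = 0.969). The difference between the depletion effects in macrophages and fibroblasts of the lung was called for no member (0.0169% of all genes); 1 nuclear member had an unadjusted p below 0.05 in limma (5.50% of all genes). That gene was Cox6b2, with 15.4, 40.3 and 44.2 in depleted and 15.8, 4.5 and 8.9 in control macrophages, on 20 estimated reads in all, and a difference between effects of 2.06 ± 0.73 (limma adjusted p = 0.849).

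In skin fibroblasts, 3 against 3, no member was called (0% of all genes), and 2 nuclear members had an unadjusted p below 0.05 in limma (2.53%, against 2.40% of all genes). The nuclear median was 0.19, with 61 of 79 above 0, and the mt- median -0.05. Over all genes tested the median was 0.03, with 6076 of 11780 above 0. All 9 nuclear members of complex III were above 0, with a median of 0.39. Sdhd had 207.7, 205.6 and 142.2 in depleted and 95.1, 148.5 and 92.3 in control fibroblasts, with overlap at the lowest depleted library, and a difference of 0.73 ± 0.31 (limma adjusted p = 0.955). Fibroblast markers, all 12 listed, summed to 5.70 to 7.89% of signal in depleted and 8.46 to 10.98% in control fibroblasts, without overlap. Keratinocyte markers made up 0.123 to 1.43% and 0.275 to 0.406%; the part of either in these values was not tested.

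In skin macrophages 4 depleted libraries faced a single control library, which is assumed to vary like the other groups in a model of all 4 skin groups. No member was called in limma (0% of all genes), and 2 nuclear and 4 mt- members had an unadjusted p below 0.05 (5.50% of all genes). All 13 mt- members and 28 of 79 nuclear members were lower in every depleted library than in the control library, against 3077 of 12536 genes tested (24.5%). In either direction the groups did not overlap for 36 nuclear members, against 48.3% of all genes. The mt- median was -0.90 and the nuclear median -0.33, and all of these values rest on that 1 library. mt-Nd1, a core subunit of complex I, had 2191, 1992, 2210 and 1643 in depleted macrophages and 4115 in the control macrophages (-1.04 ± 0.43, limma adjusted p = 0.839). mt-Nd3, of the same complex, had 38.9, 50.5, 65.1 and 24.8 against 124.3 (-1.53 ± 0.60, limma adjusted p = 0.838). The control library also had the highest share of ribosomal RNA genes of the 5, 1.34% against 0.334 to 0.834%, and of nuclear-retained RNAs, 0.556% against 0.238 to 0.469%. Markers of other cell types were highest in it as well: keratinocyte markers at 0.569% against 0.131 to 0.311%, fibroblast markers at 0.190% against 0.025 to 0.115%, and mast cell markers at 0.0353% against 0.001 to 0.0095%. The part of these in the values was not tested. With both libraries kept apart returned to their label, the nuclear median turned to 0.28 and the mt- median was -0.70. The difference between the effects in skin macrophages and fibroblasts was called for no member (0% of all genes), with 2 nuclear and 2 mt- members at an unadjusted p below 0.05 in limma (4.18% of all genes).

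**Figure D5:**
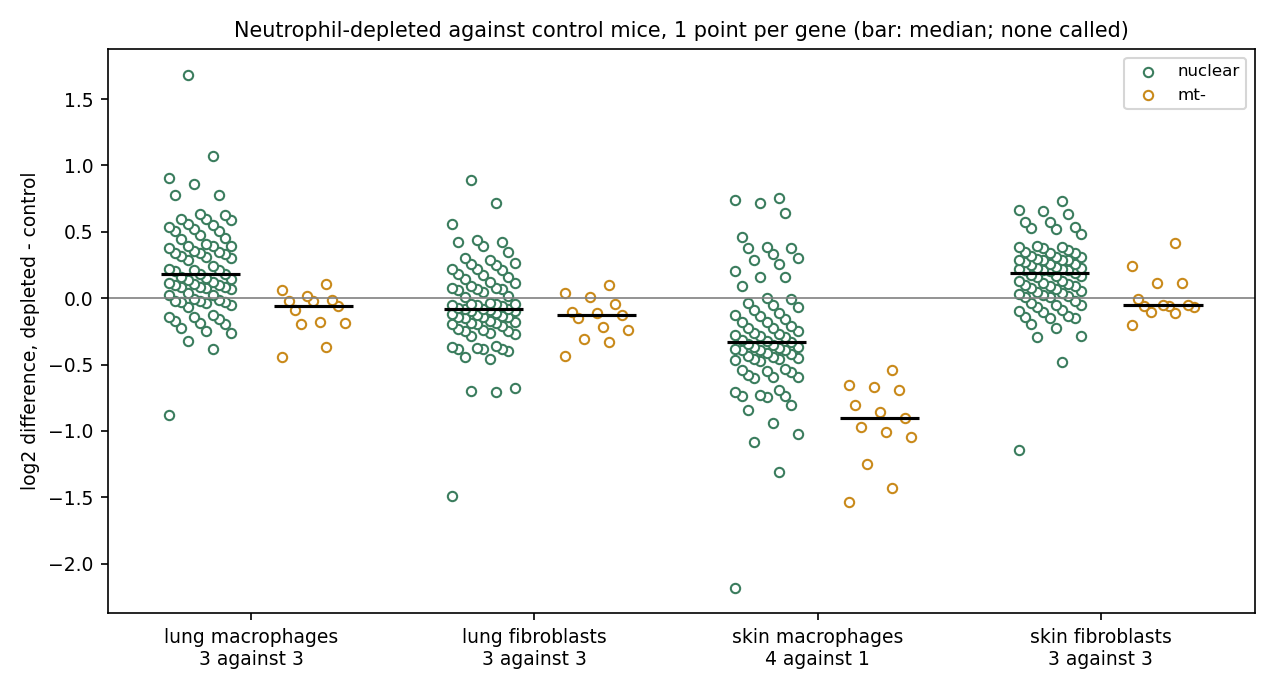
Each point is 1 gene; the vertical axis is the log2 difference between neutrophil-depleted and control mice in each cell type, with nuclear and mt- genes side by side and bars at their medians. No gene was called; the nuclear medians are 0.18, -0.08, -0.33 and 0.19 from left to right, and the mt- genes of skin macrophages (median -0.90) rest on 1 control library.

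The libraries kept apart were compared with the fibroblasts whose markers they carry. In control macrophages 5, 54 of 79 nuclear members lay within the range of the 6 skin fibroblast libraries, 23 below it and 2 above it, and all 13 mt- members lay within it. In control macrophages 1, 30 nuclear members lay within that range and 49 above it, and 11 of 13 mt- members within it. Cox6b1 was 249.5 in control macrophages 1 and 122.2 in control macrophages 5, where skin fibroblasts ranged from 115.5 to 186.7 and the skin macrophages from 351.3 to 549.8. Neither reached the skin macrophages in Cox6b1, but 49 of 79 nuclear members of control macrophages 1 and 13 of control macrophages 5 lay within the range of the 5 skin macrophage libraries.

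Of the 80 nuclear members 36 overlap another gene in the annotation, 12 of them on the same strand, and reads of such genes may be shared. Cox6b1, Cox6b2, Cox8b, Uqcrfs1, Ndufb7 and Ndufa5 overlap none. Coordinates of genes are those of GRCm38.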

How the data were processed

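RNA-seq of 25 libraries, 12 from lung and 13 from skin, was analysed. The submitters' processing notes name the mm10 build and the tools cutadapt 1.7.1, limma 3.46, RSEM 1.7.1 and CASAVA 1.8, with neither role nor order; the normalisation and the strand setting were not given in the sources used here. Normalised signal was deposited by the authors as a table for each organ. Estimated reads were inferred: each value was taken as reads plus 0.5, times a constant of the library, with the library's lowest value at 0 reads. On this reading 70.0 to 82.2% of genes fell on whole reads in lung libraries and 27.4 to 58.0% in skin libraries. Such estimates are no counts, so no count model was run, and tests stayed within a table.

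Libraries were grouped by the genotype and cell type labels. A pseudocount of 1 ppm of the mean library total (1.042 in lung, 1.001 in skin) was added before taking log2, and limma 3.58.1 under R 4.3.3 was run (lmFit, then eBayes with a variance trend, two-sided). A gene entered with 1 ppm or more in at least the number of libraries of the smaller group. In the models of 4 groups, that of skin macrophages under depletion included, at least 3 libraries of any group were asked for. A call is an adjusted p (Benjamini-Hochberg over all genes tested) below 0.05. This scale understates differences of low genes. Cell types were compared over both arms, by the cell type term of an additive model with the arm as a covariate. The difference between depletion effects was an interaction in a model of 4 groups. The scripts were tested on simulated data. Symbols were matched for 11829 lung and 12641 skin genes, with GRCm38 coordinates; promoters come from RefSeq (GRCm38.p6).

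Named are, for each comparison and genome, up to 6 called members per direction by p (the 3 with the lowest p where fewer than 3 were called), the 13 mt- genes, the 4 complex II subunits, the isoform families and up to 3 genes of each companion list; some of these are given by count or range only. Uqcrc1 in the cell type comparisons, Atp5g1 and Atp5g3 were named after their values were seen. Results of 1 member are not reported here. Members, lists and tests were chosen with earlier results of these data known. Alternatives covered the pseudocount, filter, scaling, variance trend, threshold, replicate block, each arm alone, the libraries kept apart and each library left out. Intervals and floors cover counting error only.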

Additional observations from a re-analysis of the deposited data

How the results depend on the processing

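In the lung comparison of cell types 39 members were called. The count was 17 with no variance trend and 29 to 39 with each library left out in turn. It was 24 with depleted mice only and 8 with control mice only, each on fewer libraries. With depleted mice only 20 of 80 nuclear members were higher, against 12.5% of all genes. With control mice only 5 of 80 were, against 12.2%, and with no variance trend 13 of 80, against 17.0%. The nuclear share thus lay above that of all genes with depleted mice only, but not with control mice only or with no variance trend. In skin 46 were called, and the count was 29 with totals without mt- genes, 29 with no variance trend, 22 with all libraries as labelled and 28 to 52 with each library left out; 28 came without skin control macrophages replicate 3, the lone control. Of these calls 5 of 39 in lung were kept in all 24 settings (Cox5a, Cox6b1, Ndufb7, Cox6b2 and Cox8b, the last against macrophages that are all at 0 reads), and 18 of 46 in skin in all 23. The other 6 comparisons gave 0 calls in limma in every setting run; without the lone control library the skin macrophage comparison and its interaction could not be fitted. No named gene's called value was reversed. Causes were not tested.

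Same-numbered libraries correlated by -0.08 to 0.167 in their deviations from group means, so the numbers were not taken to pair them. With the replicate block 35 members were called in lung and 37 in skin between cell types, and 0 in the other 6 comparisons; the medians of skin macrophages under depletion moved to 0.0002 (nuclear) and -0.44 (mt-). In lung, depth limits the members that rest on few reads, Cox8b, Ndufa4l2, Cox4i2 and Cox6b2.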
